A study of Mus musculus with 4 samples.

Results

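The variable (V) and joining (J) segments of the T cell receptor (TCR) β chain were described in sorted thymocytes of 2 genotypes. The members were all TRBV and TRBJ segments of the TRB contigs (assembled β chain transcripts) of droplet barcodes with exactly 1 TRB contig. They came to 22 TRBV labels and 12 TRBJ segments, 34 of the 165 V and J segments that the contigs of the series carried, and no measured value chose them. Of 12378 WT barcodes with a TCR contig, 11067 (89.4%) had exactly 1 TRB contig, and of 14366 Cgas KO barcodes 12769 did (88.9%).

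All mice carried the Cd4Cre transgene, whose Cre recombinase is made once thymocytes express both CD4 and CD8. The WT group was Cd4Cre alone and the Cgas KO group was Cd4Cre with floxed alleles of Cgas (Cgas fl/fl), the gene of a cytosolic DNA sensor. The samples are named CD4+CCR7+ thymocytes, while the protocol names a sort for CCR7, the chemokine receptor that guides selected thymocytes into the medulla. Each genotype had 1 expression library and 1 TCR library, and the labels state neither the number of mice nor their age. No difference therefore has a replicate check, no test was made, and every interval below is an exact 95% interval for counting error alone (Clopper-Pearson for a share, conditional for a ratio of shares).

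A β chain gene is assembled in the thymus by the RAG recombinase, which joins a D segment to a J segment and then a V segment to that join, while bases are trimmed and added at each join. The V segment encodes the loops CDR1 and CDR2, which mostly face the MHC molecule, and the V-D-J join encodes CDR3, which mostly faces the bound peptide. Thymocytes that recognise MHC class I become CD8 cells, those that recognise MHC class II become CD4 cells, and some of the latter take up Foxp3 and become regulatory T (Treg) cells.

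In the RefSeq annotation of GRCm38.p6 the segments span chr6:40891296-41558371, from Trbv1 at the start to Trbv31 at chr6:41557693-41558371. Trbv31 lies on the far side of the J and constant segments, and the other V segments lie before them. The following loop sequences were read from the deposited contigs and were the same in every contig of their label. They are shown because TRBV12-1 and TRBV31 had the highest and the lowest ratio between Cd8a+Cd8b1+ and Cd4 only barcodes and TRBV12-2 is a close relative of the first, and capitals mark the bases at which TRBV12-1 and TRBV12-2 differ, 4 in CDR1 and 3 in CDR2.
TRBV12-1 CDR1: tctggacatAGcAAt
TRBV12-2 CDR1: tctggacatCTcTCt
TRBV12-1 CDR2: cattatgaAaaGGtggag
TRBV12-2 CDR2: cattatgaTaaAAtggag
TRBV31 CDR1: gggaaatcaagccctaac
TRBV31 CDR2: tctattactgttggc

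The label TRBV12-2+TRBV13-2, the most common in WT, stands for a TRBV13-2 chain. Its loops, shown here for that reason with no base in capitals, were those of TRBV13-2 and not those of TRBV12-2.
TRBV13-2 CDR1: aataaccacaacaac
TRBV12-2+TRBV13-2 CDR1: aataaccacaacaac
TRBV13-2 CDR2: tcatatggtgctggcagc
TRBV12-2+TRBV13-2 CDR2: tcatatggtgctggcagc
Over the V residues before CDR3 the label differed from TRBV13-2 at 0 of 90 positions and from TRBV12-2 at 69. The label TRBV10 likewise went with RNA of another name: in the expression libraries 335 of 356 such WT barcodes and 432 of 456 in Cgas KO carried Trbv4 as their most abundant Trbv gene, and RefSeq types Trbv10 as a pseudogene. RefSeq also types Trbv29 as a pseudogene, and TRBV29 contigs made up 2.27% and 2.82% of barcodes. Labels are given below as the files have them.

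Each V and J segment brings bases of its own to the CDR3. The next sequences are the stretches that at least 50% of a segment's CDR3s share, at the 5′ end for V and at the 3′ end for J. They are shown for the segments with the longest and the shortest CDR3s, with the first codon of V and the last codon of J in capitals.
TRBV5 CDR3 start: TGTgccagcagccaag
TRBV2 CDR3 start: TGTgccagcagccaag
TRBV20 CDR3 start: TGTggtgctagg
TRBV30 CDR3 start: TGTagttctag
TRBJ2-2 CDR3 end: aacaccgggcagctctacTTT
TRBJ2-3 CDR3 end: gtgcagaaacgctgtatTTT
TRBJ1-1 CDR3 end: aacacagaagtcttcTTT
TRBJ2-7 CDR3 end: tatgaacagtacTTC

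The TRB contigs had a median of 14 unique molecular identifiers (UMIs) each in WT and 12 in Cgas KO, and 178307 and 184750 UMIs in all. Of the barcodes with 1 TRB contig, 97.9% and 96.9% were kept cells of their own genotype's expression library, which held 13069 cells (WT, median 4918 UMIs) and 14886 cells (Cgas KO, median 4433 UMIs). The TCR files shared 272 barcodes, and the kept cells of the expression libraries shared 283. Cgas RNA stood at 4.48 CPM (a gene's UMIs at equal library totals; 4.01 to 4.98) in WT and 2.89 (2.52 to 3.29) in Cgas KO, and the labels do not say which part of the gene the floxed alleles lose. The red cell genes Hba-a1 and Hbb-bs summed to 1.65 CPM in WT and 58.6 in Cgas KO.

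The Cgas KO library stood apart in how often 1 β chain sequence occurred in more than 1 barcode. In WT 252 of these barcodes (2.28%) shared V, J and CDR3 nucleotide sequence with another barcode of the library, and in Cgas KO 2409 did (18.9%). They formed 129 pairs in WT and 1257 in Cgas KO, and the 2 barcodes of a pair also had an α chain in common in 17.8% and 59.7% of pairs. Cgas KO barcodes in pairs had a median of 2999 UMIs against 4531 in the other barcodes, and the median sum over an α-sharing pair was 5940. The barcodes of a pair differed at a median of 12 of 16 bases. The cause of the pairs was not tested, so results are also given with each distinct β sequence counted once, which left 10940 sequences in WT and 11549 in Cgas KO.

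The V segment of a barcode's contig mostly matched the Trbv RNA of its expression library. Among joined barcodes with at least 2 Trbv UMIs, the most abundant Trbv gene matched the contig in 10462 of 10717 WT barcodes (97.6%, 97.3 to 97.9) and 11829 of 12160 Cgas KO barcodes (97.3%, 97.0 to 97.6). There TRBV10 was read as Trbv4, and either Trbv12-2 or Trbv13-2 counted as a match for TRBV12-2+TRBV13-2. In that label Trbv12-2 led in 634 of 949 WT and 661 of 1020 Cgas KO barcodes, and Trbv13-2 in 263 and 288. Counting equal names only, the match over all labels was 86.1% and 85.9%. For barcodes present in both TCR files, the contig of the other genotype matched in 7.59% and 7.69%. Matches by segment ran from 88.7% for TRBV13-2 to 100% for TRBV29 in WT, and from 82.9% to 100% for the same segments in Cgas KO.

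V use was broad and alike in rank in both genotypes. The most used labels were TRBV12-2+TRBV13-2 at 8.89% of WT and 8.51% of Cgas KO barcodes, TRBV3 at 8.39% and 9.13%, TRBV5 at 7.86% and 7.85%, TRBV19 at 7.60% and 7.04%, and TRBV31 at 7.10% and 7.51%. With its barcodes added to those of TRBV12-2+TRBV13-2, TRBV13-2 was the most used in both, at 10.3% and 10.1% (ratio 0.978, 0.902 to 1.06). TRBV30 was the least used, at 0.479% and 0.368%. Shares of the 22 labels in the 2 libraries had a Pearson r of 0.987 across labels, a description of segments and not of replicates.

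**Figure D1:**
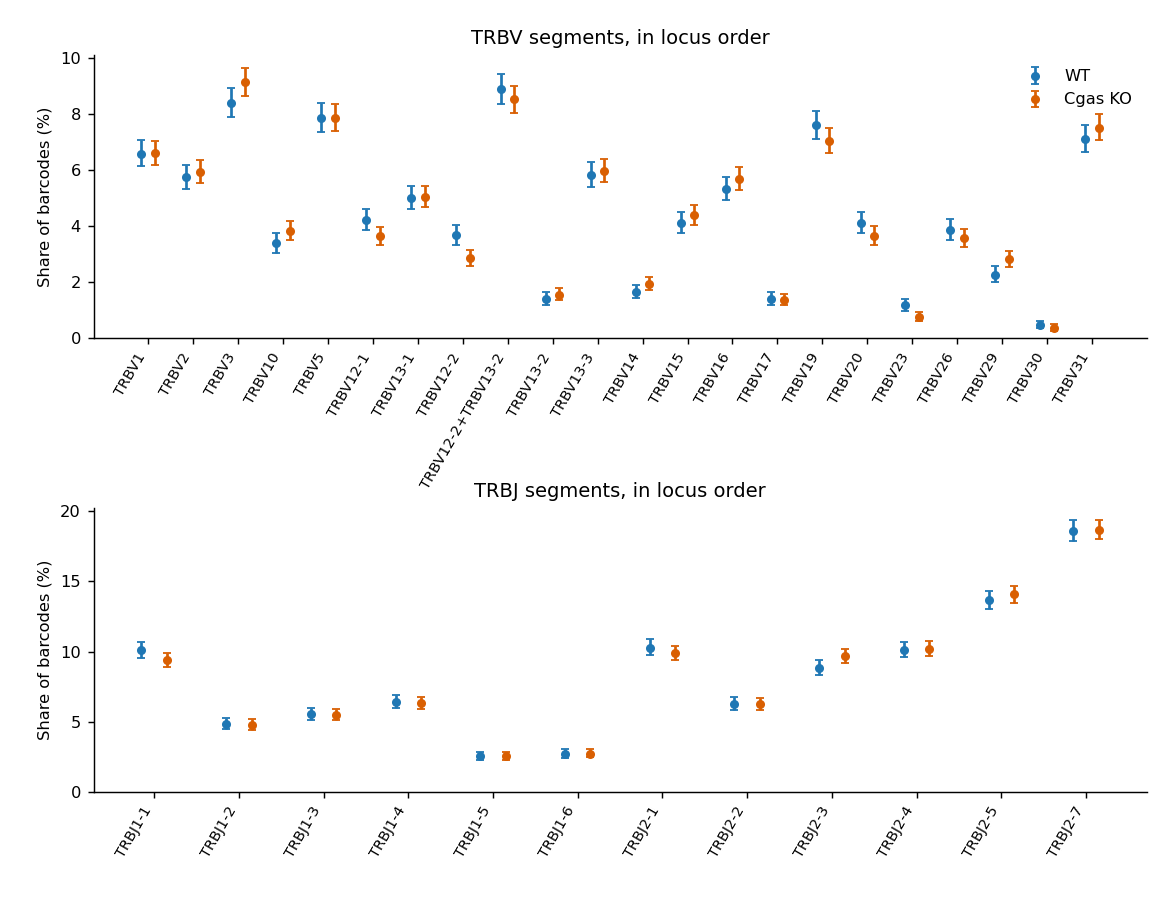
Share of barcodes with exactly 1 TRB contig (%) that carried each TRBV label (top) and each TRBJ segment (bottom), in locus order with TRBV10 at the place of Trbv4, for WT (blue) and Cgas KO (orange). Points are the 2 libraries and bars are exact 95% intervals for counting error; TRBJ2-7 stands highest among J segments, at 18.6% and 18.7%.

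Of the 22 TRBV labels, 4 were at least 1.2-fold apart between the genotypes (18.2%), 1 higher in Cgas KO (4.55%) and 3 lower (13.6%). TRBV29 was the one that stood higher, with 251 WT barcodes (2.27%) and 360 Cgas KO barcodes (2.82%), which gives a ratio of 1.24 (1.06 to 1.47). TRBV23 stood lower, with 129 barcodes (1.17%) and 98 (0.767%) and a ratio of 0.658 (0.501 to 0.863), and TRBV12-2 did too, at 3.67% and 2.84% with a ratio of 0.775 (0.671 to 0.895). TRBV30 was also past the fold at 0.769, but 53 and 47 barcodes left an interval of 0.508 to 1.16 that holds 1.

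Next on the higher side, short of the fold, were TRBV14 at 1.64% and 1.94% (ratio 1.18, 0.971 to 1.44) and TRBV10 at 3.38% and 3.83% (1.13, 0.988 to 1.30). With each distinct sequence once, the ratios were 1.22 for TRBV29, 0.664 for TRBV23, 0.768 for TRBV12-2 and 0.802 for TRBV30. The remaining 16 labels, TRBV12-1 (0.859, 0.754 to 0.979) lowest among them, lay between 0.859 and 1.11. With every TRB contig counted, 2 labels were past the fold in place of 4. A comparison of this kind between 2 libraries cannot separate genotype from mouse or library.

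A pair of readouts that the choice of barcodes did not use were set beside these ratios. In cells whose Trbv RNA came at least 80% from 1 gene, with at least 3 UMIs, TRBV23 again stood lower in Cgas KO (0.641, 0.468 to 0.875), TRBV30 was at 0.695 and TRBV29 at 1.198 (1.003 to 1.431). These are largely the same cells read by another assay. In the 1169 WT and 1392 Cgas KO barcodes with 2 TRB contigs, which are other barcodes, TRBV23 was at 1.04, TRBV29 at 1.03 and TRBV30 at 1.31, and none of these 3 intervals left out 1. TRBV12-2 was at 0.851 (0.609 to 1.19) in them and TRBV10 at 1.45 (1.08 to 1.98).

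The genotype ratios of these labels were not even over cell classes. TRBV23 was below 1 in each of the 4 classes described below, at 0.594 (0.387 to 0.902) in Cd4 only, 0.429 in Cd8a+Cd8b1+, 0.572 in Nr4a1/Egr-high and 0.227 in Foxp3+ barcodes, the last from 6 and 1 barcodes. TRBV12-2 was at 0.655 (0.480 to 0.889) in Cd8a+Cd8b1+ and 0.824 in Cd4 only barcodes, but at 1.52 (0.964 to 2.43) in Nr4a1/Egr-high and 1.27 in Foxp3+ ones. TRBV29 was at 1.30 in Cd4 only, 1.97 in Nr4a1/Egr-high, 0.981 in Cd8a+Cd8b1+ and 0.909 in Foxp3+ barcodes. The classes are parts of the barcodes on which these labels were picked, so that TRBV23 kept its side was largely fixed in advance. Whether the ratio differs between classes was not tested.

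J use differed less than V use. None of the 12 TRBJ segments was 1.2-fold apart between the genotypes (0.0%). TRBJ2-7 was the most used at 18.6% of WT and 18.7% of Cgas KO barcodes, followed by TRBJ2-5 at 13.7% and 14.1% (ratio 1.03), and TRBJ1-5 the least used at 2.51% in both. The highest ratio was that of TRBJ2-3, at 8.84% and 9.67% (1.09, 1.01 to 1.19), and the lowest were those of TRBJ1-1 at 10.1% and 9.40% (0.930, 0.857 to 1.01) and TRBJ2-1 at 10.3% and 9.88% (0.961). With each distinct sequence once, TRBJ2-3 was at 1.09 with an interval that holds 1 (0.999 to 1.19). RefSeq also lists Trbj1-7 as a J segment and Trbj2-6 as a pseudogene, and neither name occurred among the contigs.

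The J segments lie in 2 clusters, each with its own D segment before it and its own constant region after it. TRBJ2 segments made up 67.9% of WT and 68.8% of Cgas KO barcodes (ratio 1.01, 0.982 to 1.04). Every TRBJ1 contig with a constant region call carried TRBC1 (3533 and 3959 barcodes) and every TRBJ2 contig carried TRBC2 (7506 and 8766), as their order on the chromosome allows. A D segment was called in 21.4% and 20.9% of barcodes. Where it was, TRBD2 stood with TRBJ1 in 12 of 683 WT barcodes (1.76%) and 7 of 710 Cgas KO barcodes (0.986%), a join that would run against the locus order, while TRBJ2 took TRBD1 in 50.7% and 51.9%.

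The TRBJ2 share varied among V segments more than between genotypes. It was highest with TRBV30 (79.2% and 78.7%), TRBV17 (77.4% and 78.3%) and TRBV15 (76.2% and 78.8%), and 62.8% and 62.7% with TRBV26. With TRBV20 it was 58.2% (53.6 to 62.8) in WT and 68.0% in Cgas KO. Across the 22 labels the 2 libraries' TRBJ2 shares had a Pearson r of 0.75.

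Cells were then divided by their own RNA into classes that exclude each other in this order. Foxp3+ barcodes held a UMI of Foxp3, the Treg transcription factor (386 WT and 283 Cgas KO barcodes with 1 TRB contig). Nr4a1/Egr-high barcodes were those in the top 10% of summed Nr4a1, Egr1, Egr2 and Egr3, genes that TCR signals induce (1049 and 1270). Cd8a+Cd8b1+ barcodes held UMIs of both CD8 chains (1558 and 1529), and Cd4 only barcodes a Cd4 UMI with none of either CD8 chain (4457 and 5088). The remaining 3380 and 4198 joined barcodes fell in none.

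Markers outside the rule were higher in the class of their lineage. Nkg7, a cytotoxic granule gene, stood at 146 and 108 CPM in Cd8a+Cd8b1+ cells against 3.39 and 2.57 in Cd4 only cells, and Runx3, a factor of the CD8 lineage, at 137 and 136 against 50.7 and 47.7. Zbtb7b, which directs the CD4 lineage, stood at 22.4 and 24.7 CPM against 96.9 and 90.7. Il2ra, an IL-2 receptor chain of Treg cells, stood at 183 and 218 CPM in Foxp3+ cells against 9.38 and 7.99, and Cd69, an activation marker, at 436 and 419 in Nr4a1/Egr-high cells against 185 and 171. In 300 of 520 WT and 251 of 384 Cgas KO Foxp3+ cells the class rested on 1 Foxp3 UMI.

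V use of Cd8a+Cd8b1+ barcodes differed from that of Cd4 only barcodes in most labels. Of 20 labels with at least 50 barcodes in the 2 classes of each library, 13 were at least 1.2-fold apart in the same direction in both libraries (65.0%), 7 higher (35.0%) and 6 lower (30.0%). In all, 19 of 20 lay on the same side of 1 in both, and the log2 ratios of the 2 libraries had a Pearson r of 0.94 across labels. Each library has its own Cd4 only barcodes, so these ratios share no barcodes between genotypes, apart from those present in both files.

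TRBV12-1 had the highest ratio. It was carried by 9.05% of Cd8a+Cd8b1+ against 2.60% of Cd4 only barcodes in WT (ratio 3.48, 2.70 to 4.49) and by 7.91% against 2.34% in Cgas KO (3.38, 2.61 to 4.40). TRBV29 followed at 5.20% against 1.79% (2.90, 2.10 to 3.99) and 5.1% against 2.34% (2.18, 1.62 to 2.93). TRBV12-2, whose loops differ from those of TRBV12-1 at the capitals above, was at 7.19% against 2.63% (2.74, 2.09 to 3.58) and 4.71% against 2.16% (2.18, 1.60 to 2.96). TRBV12-1 and TRBV12-2 differed at 16 of 90 V residues before CDR3. TRBV17 was at 2.50% against 0.965% (2.59, 1.64 to 4.10) and 2.29% against 1.08% (2.12, 1.35 to 3.29). In these labels no interval reached 1 in either library.

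TRBV31, the V segment beyond the constant regions, had the lowest ratio. It was carried by 2.76% of Cd8a+Cd8b1+ against 8.41% of Cd4 only barcodes in WT (0.328, 0.234 to 0.450) and by 3.27% against 8.75% in Cgas KO (0.374, 0.273 to 0.502). TRBV2 was at 3.98% against 6.19% (0.643, 0.480 to 0.849) and 3.86% against 6.55% (0.590, 0.439 to 0.780), and TRBV3 at 5.65% against 9.02% (0.626) and 6.67% against 9.61% (0.694). TRBV20 was at 2.37% against 4.55% (0.521, 0.357 to 0.743) in WT, and at 3.14% against 4.11% in Cgas KO with an interval that holds 1 (0.764, 0.546 to 1.05).

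The other 5 labels past the fold were TRBV14 (2.46 and 1.54), TRBV10 (1.65 and 1.31) and TRBV13-1 (1.26 and 1.60) on the higher side, and TRBV13-2 (0.748 and 0.673) and TRBV5 (0.830 and 0.720) on the lower. TRBV5 in WT was past the fold by little. TRBV16 was past it in Cgas KO only, at 0.957 and 1.46, and TRBV1 in WT only, at 0.624 and 0.865; these differences between libraries were not tested. TRBV15 was at 0.690 and 0.839, TRBV19 at 0.875 and 0.931, TRBV26 at 0.913 and 0.889 and TRBV13-3 at 1.13 and 1.01, while TRBV23 and TRBV30 had too few barcodes to be counted. TRBV12-2+TRBV13-2 was at 0.942 and 0.856, and with its barcodes added to those of TRBV13-2 the count of labels past the fold was 12. TRBV13-2 was then no longer among them. With each distinct sequence once, the ratios were 3.44 and 3.33 for TRBV12-1 and 0.328 and 0.378 for TRBV31.

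**Figure D2:**
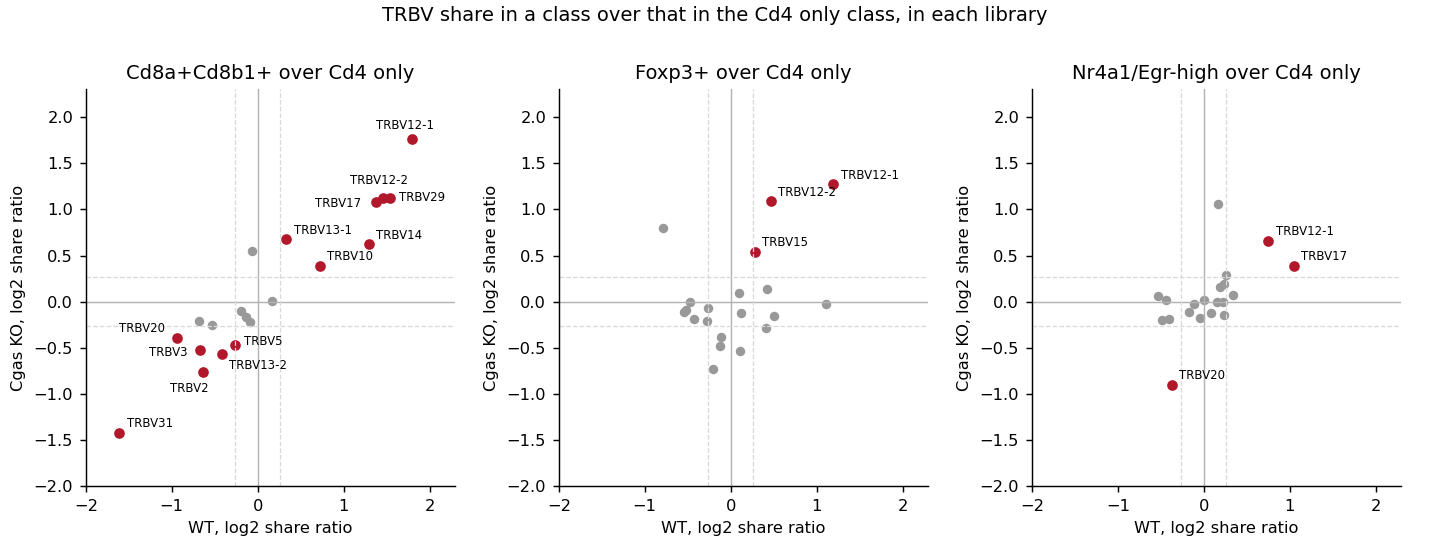
Each point is 1 TRBV label, with the log2 ratio of its share in a class over its share in Cd4 only barcodes in WT (x axis) and in Cgas KO (y axis). Labels at least 1.2-fold apart (dashed lines) in the same direction in both libraries are red and named: 13 of 20 for Cd8a+Cd8b1+, 3 of 20 for Foxp3+ and 3 of 20 for Nr4a1/Egr-high barcodes.

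The Cd8a+Cd8b1+ class, found in samples named CD4+CCR7+, held cells of more than 1 stage. Rag1, a recombinase subunit that double-positive thymocytes express, stood at 128 CPM in WT and 122 in Cgas KO in this class against 1.39 and 1.22 in Cd4 only cells, and Dntt, the terminal transferase, at 266 and 292 against 14.3 and 13.5. Both were higher in the cells that also held a Cd4 UMI (491 and 497 barcodes): Rag1 stood at 224 and 209 CPM there against 38.0 and 40.8 in those with none, and Runx3 at 87.6 and 77.9 against 184 and 190. In cells with a Cd4 UMI 78.3% and 82.9% had any TRB contig, against 96.0% and 95.9% without one.

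The V ratios were therefore read in both parts of the class. TRBV12-1 stood at 8.96% with and 9.09% without a Cd4 UMI in WT, and at 5.03% and 9.30% in Cgas KO, against 2.60% and 2.34% in Cd4 only barcodes. TRBV31 stood at 3.67% and 2.34% in WT and at 3.42% and 3.20% in Cgas KO, against 8.41% and 8.75%. For these labels the part with less Rag1 RNA differed from Cd4 only barcodes by at least as much as the whole class. TRBV20 differed by part: with a Cd4 UMI it was at 4.28% and 4.23%, close to the 4.55% and 4.11% of Cd4 only barcodes, and without one at 1.5% (0.859 to 2.42) and 2.62% (1.73 to 3.78). The ratio of the parts was 0.351 (0.171 to 0.705) in WT, and in Cgas KO its interval holds 1 (0.619, 0.337 to 1.15).

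TRBV12-2 was likewise furthest from Cd4 only barcodes without a Cd4 UMI, at 8.25% and 5.62% against 4.89% and 2.82% with one, and TRBV29 was at 6.19% and 5.43% against 3.05% and 4.43%. The share without a Cd4 UMI over that with one was 1.69 (1.06 to 2.77) and 1.995 (1.10 to 3.87) for TRBV12-2, 2.02 (1.14 to 3.82) and 1.23 (0.737 to 2.11) for TRBV29, and 1.01 and 1.85 (1.18 to 2.998) for TRBV12-1. Over the 13 labels past the fold, 13 lay on the side of the whole class in both libraries where no Cd4 UMI was seen. Where one was seen 11 did in WT (not TRBV13-1 and TRBV13-2) and 10 in Cgas KO (not TRBV10, TRBV13-2 and TRBV20). Both parts belong to the class on which the labels were called. The part with no Cd4 UMI is most of it, 1067 of 1558 barcodes in WT and 1032 of 1529 in Cgas KO. The sides of that part were thus largely fixed in advance.

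**Figure D3:**
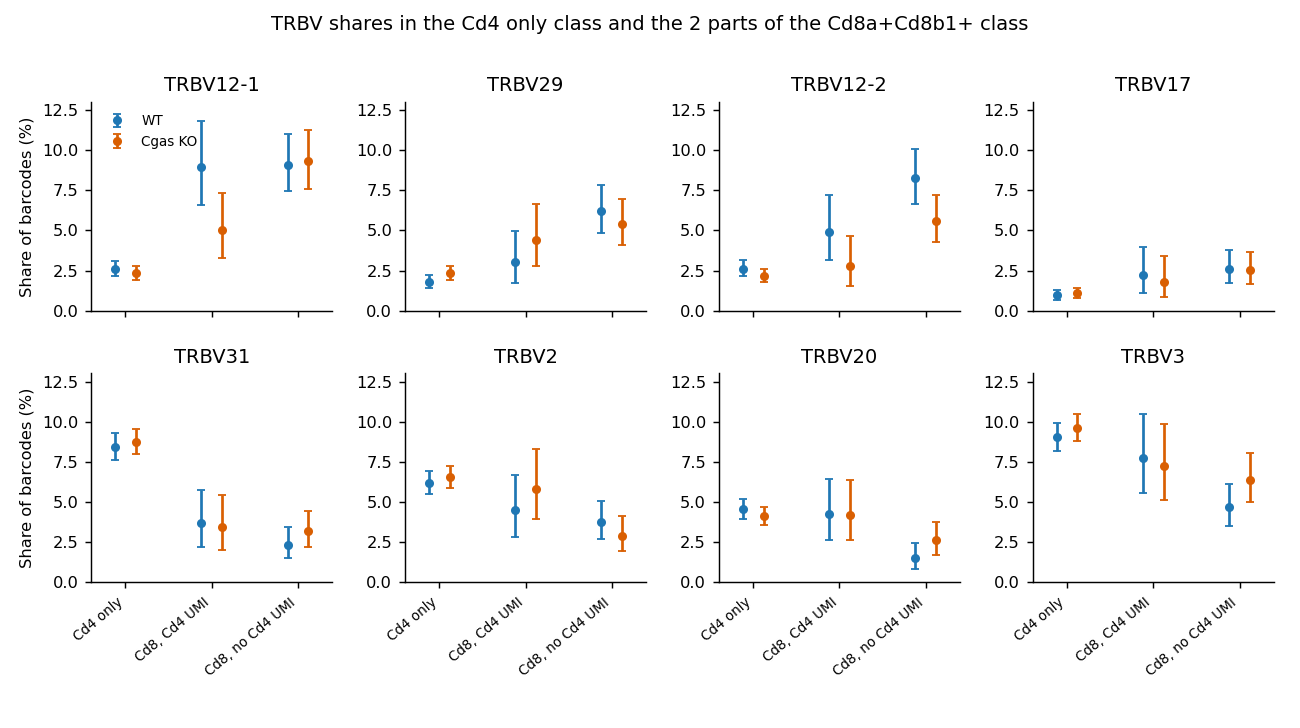
Share of barcodes (%) that carried each of 8 TRBV labels in the Cd4 only class, in Cd8a+Cd8b1+ barcodes with a Cd4 UMI and in those without one, for WT (blue) and Cgas KO (orange). Bars are exact 95% intervals for counting error. The labels of the top row stand lowest in Cd4 only barcodes and those of the bottom row highest or close to it; TRBV20 is lowest where no Cd4 UMI was seen (1.5% and 2.62%).

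Other readouts of the same contrast gave these sides. By the dominant Trbv gene of the expression library, 13 of the 13 labels past the fold lay on the same side of 1 for WT, and in Cgas KO 12 of 13 did, TRBV13-2 being the exception. That readout covers largely the same cells by another assay. Trbv12-2 led in 634 of 949 WT and 661 of 1020 Cgas KO barcodes labelled TRBV12-2+TRBV13-2. It therefore cannot separate TRBV12-2 or TRBV13-2 from the double label. In barcodes with 2 TRB contigs, 12 of 13 did in WT (not TRBV10) and 10 of 13 in Cgas KO (not TRBV13-1, TRBV13-2 and TRBV20), and 10 and 7 of them were past the fold on that side. In those barcodes TRBV12-1 was at 3.08 and 2.79 and TRBV31 at 0.490 and 0.459, with intervals that left out 1. These are barcodes that had no part in the shares above.

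Of the 12 TRBJ segments, 2 were past the fold in Cd8a+Cd8b1+ against Cd4 only barcodes (16.7%). TRBJ2-1 was higher, at 12.5% against 9.27% in WT (1.35, 1.13 to 1.61) and 13.1% against 8.63% in Cgas KO (1.52, 1.28 to 1.80), and TRBJ2-4 was lower, at 8.22% against 10.5% (0.784, 0.640 to 0.955) and 7.78% against 10.8% (0.721, 0.587 to 0.881). In barcodes with 2 TRB contigs TRBJ2-1 was at 1.11 and 1.17, and TRBJ2-4 lay on the other side of 1 at 1.55 and 1.21. The TRBJ2 cluster was at 66.3% and 69.7% in Cd8a+Cd8b1+ barcodes and 67.6% and 69.1% in Cd4 only ones.

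Foxp3+ barcodes differed from Cd4 only barcodes in fewer labels. Of 20 TRBV labels 3 were past the fold in both libraries (15.0%), all higher, and the log2 ratios of the libraries had a Pearson r of 0.34. TRBV12-1 was the one whose intervals left out 1 in both, at 5.96% against 2.60% in WT (23 barcodes; 2.29, 1.40 to 3.60) and 5.65% against 2.34% in Cgas KO (16 barcodes; 2.42, 1.34 to 4.09). TRBV12-2 was at 1.38 (0.733 to 2.41) and 2.12 (1.10 to 3.79), and TRBV15 at 1.22 (0.738 to 1.91) and 1.46 (0.848 to 2.36). All 3 class contrasts use the same Cd4 only barcodes of a library, so TRBV12-1 standing high in each of them is not independent. A Cd4 UMI, which every Cd4 only barcode holds, was seen in 223 of 386 WT and 163 of 283 Cgas KO Foxp3+ barcodes. The part of the remaining barcodes in these ratios was not tested.

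TRBV12-1 also stood high in Foxp3+ cells by other readouts, at 2.67 and 1.89 by the dominant Trbv gene and at 2.20 and 1.72 in barcodes with 2 TRB contigs, where the intervals hold 1. Of the Foxp3+ cells 42 in WT and 25 in Cgas KO held both CD8 chains, and their part in this ratio was not tested. Most other labels had few Foxp3+ barcodes, between 0 and 40 in a library, and 14 of 20 were past the fold in WT and 9 of 20 in Cgas KO, while 14 of 20 lay on the same side of 1 in both. With at least 2 Foxp3 UMIs asked of a cell, which left 164 WT and 98 Cgas KO barcodes, 6 labels were past the fold in both. TRBV31, low in Cd8a+Cd8b1+ barcodes, was at 0.924 (0.615 to 1.34) and 0.768 (0.458 to 1.21). Among J segments TRBJ2-2 alone was past the fold (1 of 12, 8.33%), at 0.739 and 0.827 with intervals that hold 1. Transcripts of the myeloid and dendritic list (Lyz2, Itgax, H2-Aa, Cd74, Csf1r) summed to 156 CPM in WT Foxp3+ cells (4 of 5 detected, Csf1r at 0) and 43.7 in Cgas KO ones (3 of 5, Itgax and Csf1r at 0). Their part in these shares was not tested.

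Nr4a1/Egr-high barcodes were past the fold from Cd4 only barcodes in 8 of 20 TRBV labels in WT and 5 of 20 in Cgas KO. Of these 20 labels 3 were past it in the same direction in both libraries (15.0%), 2 higher (10.0%) and 1 lower (5.0%). In all, 16 of 20 lay on the same side of 1 in both, and the log2 ratios had a Pearson r of 0.56. TRBV12-1 was at 4.39% against 2.60% in WT (1.68, 1.17 to 2.39) and 3.70% against 2.34% in Cgas KO (1.58, 1.10 to 2.24). TRBV17 was at 2.07 (1.17 to 3.57) and 1.31 (0.725 to 2.27), and TRBV20 at 0.774 (0.530 to 1.10) and 0.537 (0.348 to 0.799). TRBV12-2 was past the fold in Cgas KO only, at 1.13 and 2.08, and no TRBJ segment was past it in both (0 of 12, 0.0%). In the top 5% of cells 7 labels were past the fold, and TRBV17 turned to 0.835 in Cgas KO.

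The class is a range of a score and not a cell type: 283 WT and 399 Cgas KO cells lay within 10% of the cut, and 159 and 165 of its cells held both CD8 chains. TRBJ2 segments made up 71.9% of its WT and 67.1% of its Cgas KO barcodes, and 65.0% and 74.6% of Foxp3+ barcodes, in opposite order between the libraries.

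V and J segments were mostly paired as their separate shares would have it. Of 264 possible pairs 261 were seen in WT and 260 in Cgas KO. Among the 178 pairs with at least 20 expected barcodes in each library, 4 were at least 1.5-fold below the number expected from independent V and J shares in both (2.25%), and none was that far above (0.0%). The log2 ratios of observed to expected had a Pearson r of 0.61 between the libraries across pairs.

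All 4 scarce pairs joined a V segment to a TRBJ1 segment, as did 71 of the 178 counted pairs (39.9%). TRBV3 with TRBJ1-6 was seen in 2 WT barcodes where 25.3 were expected (0.0792 of expected, 0.00959 to 0.286) and in 16 Cgas KO barcodes against 31.7 (0.505, 0.289 to 0.820). TRBV15 with TRBJ1-2 was seen in 3 against 22.0 (0.136, 0.0281 to 0.398) and 9 against 26.9 (0.335, 0.153 to 0.635). TRBV16 with TRBJ1-2 was at 0.560 and 0.460 of expected, and TRBV15 with TRBJ1-3 at 0.520 and 0.585. The TRBJ segments named here were among the less used. TRBJ1-3 made up 5.51% of WT and 5.48% of Cgas KO barcodes, TRBJ1-2 4.85% and 4.79%, and TRBJ1-6 2.72% in both.

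Counted over distinct sequences, TRBV3 with TRBJ1-6 came to 2 and 13 and TRBV15 with TRBJ1-2 to 3 and 8. In Cd4 only barcodes the first pair was seen in 1 against 10.0 expected and 6 against 13.4, and the second in 2 against 9.82 and 3 against 10.7. In barcodes with 2 TRB contigs the first pair was again scarce (3 contigs against 6.66 and 4 against 7.86), but the second was not in Cgas KO (3 against 8.42 and 10 against 8.44), nor was TRBV16 with TRBJ1-2 in either library (14 against 8.55 and 10 against 8.92).

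The highest pairs were short of the fold in at least 1 library. TRBV26 with TRBJ1-3 was seen in 44 WT barcodes against 23.5 (1.87) and 36 Cgas KO barcodes against 25.0 (1.44). TRBV19 with TRBJ1-6 was at 1.22 and 1.68, TRBV3 with TRBJ1-2 at 1.44 and 1.41, and TRBV2 with TRBJ1-2 at 1.56 and 1.27. TRBV3 was thus above expected with TRBJ1-2 and below it with TRBJ1-6.

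**Figure D4:**
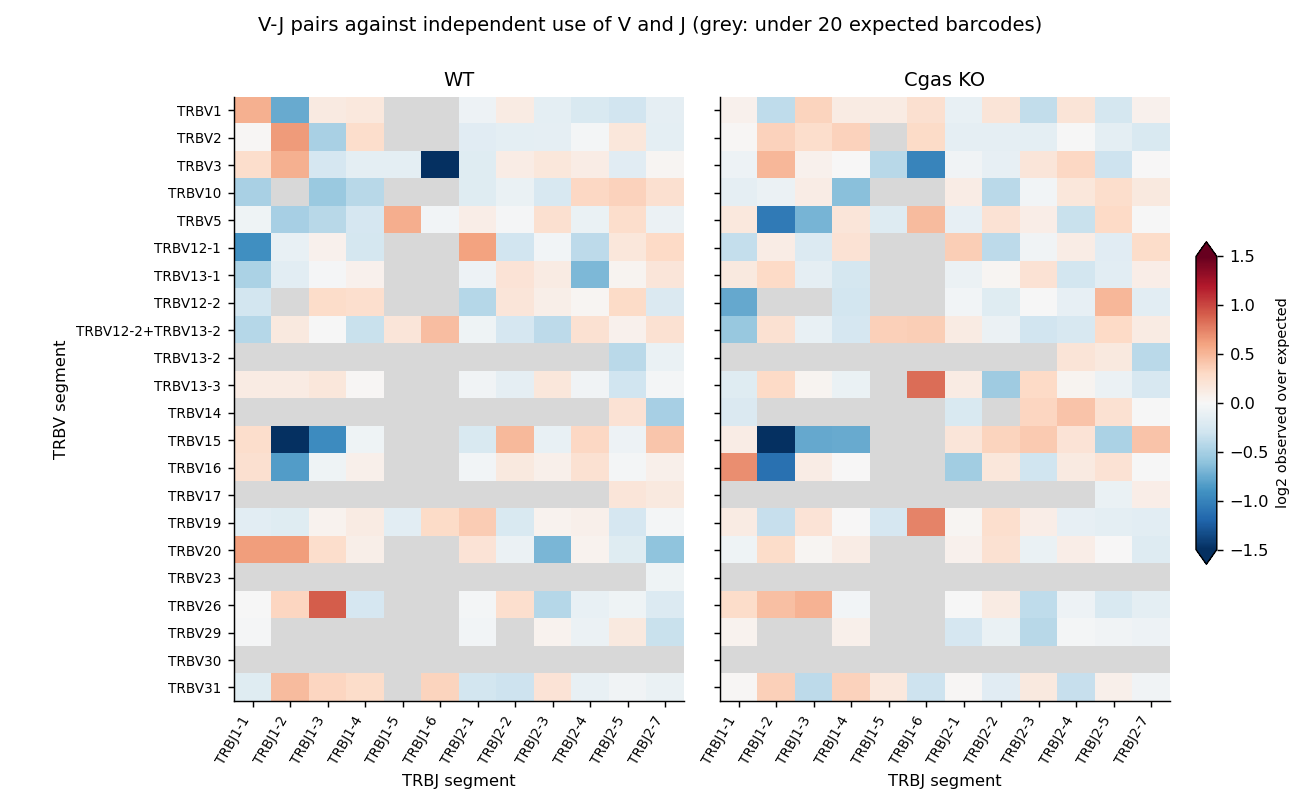
log2 of observed over expected barcodes for each TRBV label (rows) and TRBJ segment (columns) in WT (left) and Cgas KO (right), in locus order; grey cells had under 20 expected barcodes in that library. Dark blue marks the scarce pairs, such as TRBV15 with TRBJ1-2 at 0.136 and 0.335 of expected.

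CDR3 length, counted in residues with both end residues, was the same in the genotypes to within a small part of its spread. Its mean was 13.9 ± 1.39 (SD over 11067 barcodes) in WT and 13.9 ± 1.39 (SD over 12769) in Cgas KO, a difference of -0.0213. Loops of 12 residues or fewer made up 14.9% and 15.4%, and loops of 16 or more 10.8% in both.

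Mean length differed more between segments than between genotypes. TRBV5 (14.5 in WT and 14.5 in Cgas KO) and TRBV2 (14.5 and 14.4) were longest among V, and they bring the longest shared start, 16 bases. TRBV20 (13.1 and 13.1) and TRBV30 (13.1 and 12.8) were shortest and bring 12 and 11 bases. TRBJ2-2 (14.6 and 14.6) and TRBJ2-3 (14.4 and 14.4) were longest among J, with ends of 21 and 20 bases, and TRBJ1-1 (13.3 and 13.3) and TRBJ2-7 (13.4 and 13.3) shortest, with 18 and 15. The longest shared J end, 22 bases, was that of TRBJ1-3, whose mean was lower than theirs at 14.2 in WT and 14.3 in Cgas KO. Across segments the shared bases and the mean length had a Pearson r of 0.91 and 0.90 over 22 TRBV labels, and of 0.75 and 0.78 over 12 TRBJ segments. The shared stretch is itself part of the CDR3 measured, and what sets its length was not tested.

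Cd8a+Cd8b1+ barcodes had longer loops than Cd4 only barcodes in both libraries. The means were 14.1 ± 1.43 (SD, 1558 barcodes) against 13.9 ± 1.35 (4457 barcodes) in WT, a difference of 0.264, and 14.1 ± 1.53 (1529 barcodes) against 13.9 ± 1.34 (5088 barcodes) in Cgas KO, a difference of 0.215. Within V segments the mean difference was 0.312 and 0.265, as large as without regard to V. Bases between V and J, counted from the starts and ends that at least 10% of a segment's CDR3s carry, numbered 10.4 and 10.1 on average against 9.49 and 9.47. Loops of 16 residues or more were 15.0% (13.3 to 16.9) against 9.85% (8.99 to 10.8) in WT and 15.6% (13.8 to 17.5) against 9.71% (8.91 to 10.6) in Cgas KO.

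Long loops were most frequent in the part of the class with more Rag1 RNA. They made up 17.9% (14.6 to 21.6) and 21.3% (17.8 to 25.2) of Cd8a+Cd8b1+ barcodes with a Cd4 UMI, and 13.7% (11.7 to 15.9) and 12.9% (10.9 to 15.1) of those without one. Without the cells holding a Cd4 UMI, the difference in mean length from Cd4 only barcodes was 0.238 in WT and 0.132 in Cgas KO. In barcodes with 2 TRB contigs the class difference was 0.140 and 0.0602.

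In Foxp3+ barcodes the mean differed from Cd4 only ones by -0.194 in WT and 0.0153 in Cgas KO. Loops of 12 residues or fewer were 19.2% (15.4 to 23.5) and 19.1% (14.7 to 24.2), against 14.7% (13.7 to 15.8) and 15.2% (14.2 to 16.2) in Cd4 only barcodes. The mean of Nr4a1/Egr-high barcodes differed by -0.0525 and -0.0406. These differences are all small beside the SD over barcodes of 1.34 to 1.46.

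**Figure D5:**
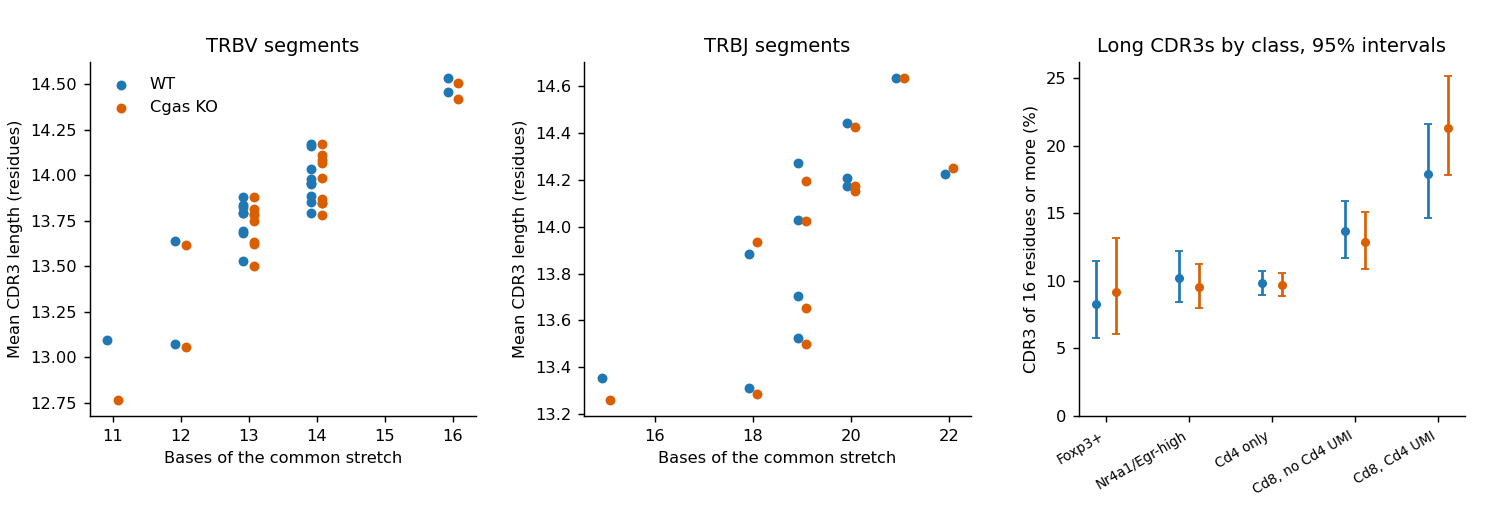
Mean CDR3 length (residues) of each TRBV label (left) and TRBJ segment (middle) against the bases of the stretch that its CDR3s share, and the share of barcodes with a CDR3 of 16 residues or more by class (right, %, exact 95% intervals for counting error), for WT (blue) and Cgas KO (orange). The points of the genotypes are shifted sideways a little to part them; long CDR3s are most frequent in Cd8a+Cd8b1+ barcodes with a Cd4 UMI, at 17.9% and 21.3%.

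Segments also differed in how much RNA was counted. Contigs of TRBV17 had a median of 24 UMIs in WT and 23 in Cgas KO and those of TRBV15 20 and 19, while those of TRBV2 had 7 and 7. Median Trbv UMIs in the expression library ran from 6 and 6 for TRBV2 to 24 and 20.5 for TRBV17, and the 2 measures had a Pearson r of 0.92 and 0.93 over 22 labels. Of cells with at least 3 Trbv UMIs, mostly from 1 gene of a label above, at most 2.70% by gene in WT and 2.10% in Cgas KO lacked a TRB contig.

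RNA of the genes that assemble and carry the β chain was near equal between genotypes. It was read in sorted cells most of which already held a TRB contig, and not at the time of assembly. Of a list of 20 (the RAG genes, Dntt, which adds bases at joins, end-joining factors, Ptcra, Cd3 and constant chains), 20 were measured, and past a fold of 1.2 there was 1 on the higher and 1 on the lower side in Cgas KO, with a median log2 ratio of -0.01. Of all 13295 genes with at least 100 UMIs, 814 stood higher (6.12%) and 752 lower (5.66%), with a median of 0.00. The one higher was Hmgb2, a RAG cofactor that also rises in dividing cells, at 379 and 467 CPM, and the one lower was Rag1 at 23.4 and 19.4 CPM. As given above, Rag1 stood far higher in Cd8a+Cd8b1+ than in Cd4 only cells. Cd8a+Cd8b1+ cells made up 15.5% of WT and 13.3% of Cgas KO kept cells, and the part of this in the Rag1 ratio was not tested.

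Few β sequences were common to the genotypes. Of the distinct combinations of V, J and CDR3 nucleotide sequence 58 occurred in both libraries, in 61 WT and 71 Cgas KO barcodes, 1 of them from a barcode present in both files. Their CDR3s had a mean of 13.4 ± 1.19 residues (SD) against 13.9 ± 1.39 for the 22373 others, and a median of 6 bases between V and J against 10, counted from the longest start and end that at least 10% of a segment's CDR3s carry. Of these, 44 were seen in 1 barcode of each library. The one in most barcodes is shown, with the J stretch of at least 50% of CDR3s in capitals, because 0 bases lay between its V and J by that count.
TRBV10 with TRBJ2-4: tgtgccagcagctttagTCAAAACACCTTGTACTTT
It was carried by 1 WT and 4 Cgas KO barcodes, all of them Cd4 only, and its 5 α contigs had 4 different CDR3s.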

How the data were processed

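Sorted thymocytes of each genotype gave 1 expression library and 1 TCR library. The matrices hold UMI counts per gene and barcode, which the authors deposited unnormalized with genes and barcodes listed beside them, and the TCR files hold 1 assembled contig per line with its V, D, J and C calls, CDR3 and UMI count. The matrix header names Cell Ranger 8.0.1, and mm10, Seurat 5.1.0 and Cell Ranger 7.0 stand in the submitters' processing notes. The labels name a 3′ kit, yet Trbv UMIs (191931 in WT and 193981 in Cgas KO) outnumbered Trbc UMIs (100531 and 98362).

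Cells were kept with at least 10% of the 99th percentile of UMIs of the top barcodes, at least 500 genes and at most 10% mitochondrial UMIs, and were joined to contigs by barcode within a genotype. No doublet caller was run; barcodes with 2 TRB contigs were left out and used as a separate readout. A segment was counted as past the fold at 1.2 with at least 100 barcodes over both libraries (genotypes) or 50 in each library's 2 classes (classes, same direction in both libraries), and a V-J pair at 1.5 with at least 20 expected. Segments were named by rank of ratio, by passing in both libraries and by share. The members and lists were chosen with earlier results of these data known. Each kept cell was also thinned to 2000 UMIs as an alternative, which left out shallower cells. Scripts were tested on simulated data (pandas 2.3.3 and scipy 1.17.1 under Python 3.11.15, with matplotlib 3.10.9 and numpy 2.4.6). RefSeq (GRCm38.p6) gave positions and gene types. Germline and protein sequences were not used here.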

Additional observations from a re-analysis of the deposited data

Results flagged for a closer look

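In Foxp3+ barcodes, 2 TRBV labels lay past a fold of 1.2 on opposite sides of Cd4 only barcodes in the 2 genotypes. TRBV16 was carried by 13 WT Foxp3+ barcodes (3.37%) against 5.83% of Cd4 only barcodes, a ratio of 0.577 (0.303 to 1.005), and by 26 Cgas KO Foxp3+ barcodes (9.19%) against 5.29%, a ratio of 1.74 (1.11 to 2.60). TRBV5 was at 1.33 in WT and 0.821 in Cgas KO. With 1 library a genotype, the difference between the genotypes was not tested for either label.

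The expression libraries held Trbv24, a name that no contig carried: 1195 UMIs in WT and 1324 in Cgas KO. They lay in 516 (3.95%) and 572 (3.84%) of the kept cells, of which 186 and 191 had at least 3 such UMIs. In 2 cells of each library Trbv24 gave at least 80% of the Trbv UMIs, and 1 of them in each had no TRB contig.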

How the results depend on the processing

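No paired analysis was possible because each genotype had 1 library of each kind and the comparisons rest on no test. With 1 library a genotype, mouse, sort, depth and genotype cannot be told apart. Contig depth (a median of 14 and 12 UMIs) and class sizes limit what shares can show, mainly in Foxp3+ barcodes.

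TRBV labels past the fold between genotypes numbered 4, and 2 with every TRB contig counted or 1 at a fold of 1.5. V-J pairs numbered 4, and 8 with at least 10 expected barcodes. At a fold of 1.5 the Cd8a+Cd8b1+ class kept 7 of its 13 TRBV counts and 0 of its 2 TRBJ counts, and Foxp3+ and Nr4a1/Egr-high 1 TRBV each. The TRBJ count of Cd8a+Cd8b1+ was 1 with every contig and 4 after thinning to 2000 UMIs. For Foxp3+ the TRBV count of 3 was 5 after thinning (217 WT and 165 Cgas KO barcodes) and 6 with at least 2 Foxp3 UMIs (164 and 98). Its TRBJ count of 1 was 3 with at least 2 Foxp3 UMIs and 0 with distinct sequences, without barcodes of both files, with overlapping classes, after thinning or at a fold of 1.5. For Nr4a1/Egr-high the TRBV count of 3 was 7 in the top 5% of cells, and the TRBJ count of 0 was 1 with every contig or after thinning. The Foxp3+ minus Cd4 only length of Cgas KO, 0.0153, turned to -0.00756 with distinct sequences, -0.0175 without barcodes of both files and -0.0355 without repeated sequences. TRBJ2-2 in Cgas KO Foxp3+ barcodes turned to 1.01 with every contig and 1.04 with at least 2 Foxp3 UMIs, and TRBV17 in Nr4a1/Egr-high barcodes to 0.835 in the top 5%. The cause was not tested. Of 450 values of single segments, 445 kept their side and moved by less than their interval. Most settings keep most of the same barcodes, so such small moves were largely fixed in advance. Leaving out repeated sequences and merging the TRBV13-2 labels were chosen after seeing the data; the first gave 5 TRBV labels between genotypes, 3 pairs and 12 TRBV labels for Cd8a+Cd8b1+.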

Other observations

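Semi-invariant α chains were rare in these libraries. TRAV11 with TRAJ18, the α chain of invariant natural killer T cells, was found in 7 of 12378 WT barcodes (0.0566%) and 11 of 14366 Cgas KO barcodes (0.0766%), and TRBV12-2+TRBV13-2 accompanied it in 2 and 5. TRAV1 with TRAJ33, the α chain of mucosal-associated invariant T cells, was found in 4 and 3 barcodes. These cells were too few to bear on any share above.

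Among the 58 β sequences common to both genotypes, TRBV5 was carried by 10 and TRBV3 by 8, and TRBJ2-7 by 12 and TRBJ2-5 by 11.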
